A study of Homo sapiens with 18 samples.

Results

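The EGR, NR4A and IER early genes are 9 genes whose transcription starts within minutes of a growth factor signal: EGR1, EGR2, EGR3, NR4A1, NR4A2, NR4A3, IER2, IER3 and IER5. They were chosen by name, and all 9 have a row among the 23621 gene rows of the deposited expression table. The cells were GIST-T1, a human line from a gastrointestinal stromal tumor (GIST), labelled as dependent on the receptor kinase KIT. There were 6 groups of 3 RNA-seq libraries: imatinib for 6 h, JQ1 for 6 h, imatinib for 24 h, JQ1 for 24 h, imatinib with JQ1 for 24 h, and DMSO, the solvent, for which the labels give no time. Each drug was used at 500 nM. Imatinib inhibits KIT and a few related kinases, and JQ1 displaces BET bromodomain proteins from acetylated chromatin. All groups are 1 cell line. Nothing in the labels tells separate cultures from repeat libraries, so p-values measure only the spread between these libraries, which may be technical.

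Immediate early genes need no new protein to be switched on. Receptor kinases such as KIT activate RAS and the kinase ERK, which phosphorylates ETS-type partners of the serum response factor SRF. The pair bound at CArG boxes drives many immediate early genes, though not all of them. Immediate early transcripts are short-lived, so their levels follow ongoing transcription closely. The EGR proteins are zinc finger transcription factors, and the NR4A proteins are orphan nuclear receptors that act without a classical ligand. Of the IER genes, IER2 and IER5 encode nuclear proteins, and IER3 (IEX-1) modulates cell survival. In GIST, signaling from mutant KIT keeps ERK active.

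The promoters of EGR1, IER2 and IER5 are shown because these 3 genes had the highest levels of the set in DMSO and with JQ1 alone. With imatinib, alone or with JQ1, EGR1 averaged less than NR4A1. RefSeq windows on GRCh38.p14 were matched by symbol for 6 of the 9 members, with 9 windows between them. EGR3, NR4A2 and IER3 did not match. Each sequence is the 250 bases before the annotated start, on the plus strand, at chr5:138465229-138465478 for EGR1, chr19:13150161-13150410 for IER2 and chr1:181088450-181088699 for IER5. Capitals mark a CArG box, the ETS core CCGGAA or the cyclic AMP response core TGACG, each searched on both strands, and no matches overlap.
EGR1: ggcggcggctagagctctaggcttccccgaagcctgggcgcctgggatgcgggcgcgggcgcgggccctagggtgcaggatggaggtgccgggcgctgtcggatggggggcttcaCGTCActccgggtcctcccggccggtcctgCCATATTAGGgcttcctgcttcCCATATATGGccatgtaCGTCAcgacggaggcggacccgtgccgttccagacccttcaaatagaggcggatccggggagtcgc
IER2: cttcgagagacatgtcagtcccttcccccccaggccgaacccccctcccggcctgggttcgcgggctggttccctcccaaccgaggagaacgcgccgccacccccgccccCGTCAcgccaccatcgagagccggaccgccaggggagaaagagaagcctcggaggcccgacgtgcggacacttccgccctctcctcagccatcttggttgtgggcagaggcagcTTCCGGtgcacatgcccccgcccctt
IER5: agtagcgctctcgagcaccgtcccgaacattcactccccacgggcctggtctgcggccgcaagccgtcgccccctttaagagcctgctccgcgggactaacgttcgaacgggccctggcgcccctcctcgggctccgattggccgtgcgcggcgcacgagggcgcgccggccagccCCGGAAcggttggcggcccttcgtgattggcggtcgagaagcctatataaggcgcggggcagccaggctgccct

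EGR1 has 2 CArG boxes, 105 to 96 and 83 to 74 bases before the start. One of the EGR2 windows also holds a CArG box, which 1.16% of 35116 promoter windows of the same length do. The ETS core was found for NR4A1, IER2 and IER5 and in 14.5% of all windows. The core TGACG was found for EGR1, EGR2, NR4A3 and IER2 and in 21.2% of all windows. By window, the CArG box, the ETS core and TGACG were in 2, 3 and 4 of the 9 member windows. An EGR site (GCGGGGGCG) and an NR4A site (AAAGGTCA) were also searched. Neither was in a member window, against 4.72% and 1.05% of all windows. A match describes the letters only.

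The values are FPKM, the fragments counted on a transcript relative to its length and to the size of the library, which the authors deposited on a scale tied to ERCC spike-in RNA, which per the labels was added after the RNA had been matched to cell count. The number of reads behind each library is unknown. Gene totals per library lay between 286566 and 518817 FPKM in the 24 h imatinib and combination groups and between 1833221 and 2463615 in DMSO, and over the 12771 tested genes the median log2 change from DMSO was between -2.05 and -0.69. By that labelled design the scale reads RNA per counted cell, and how well the counts matched cannot be checked here. In such bulk samples, a fall in all cells and a fall in part of them cannot be told apart. Because the median gene fell, each change is given also after ratio rescaling. In it every library is divided by its median gene ratio to a common average, so that a gene is read against most other genes. Among the GIST markers, KIT averaged 644 FPKM in DMSO, CD34 4065 and ANO1 346. Of the markers of other cell types, KRT18 (538 FPKM in DMSO), KRT8, EPCAM and SYP reached 1 FPKM in some library, while PTPRC, PECAM1, CDH1 and SOX10 did not. The summed GIST markers lay between 245 and 433 FPKM with both drugs and between 4672 and 7149 in DMSO, and the summed epithelial markers between 16.5 and 29.4 and between 416 and 663, and their part in the results was not tested.

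Of the 9 members, 5 reached the level needed for a test, at least 1 FPKM in at least 3 libraries. Changes were tested with limma on log2(FPKM + 1), which understates the change of low genes, and a call needed an adjusted p under 0.05 and a log2 change of at least 1 in size. In DMSO, IER2 had the highest level (50.1 ± 10.6 FPKM, mean ± SD, n = 3), then IER5 (40.5 ± 10.3), EGR1 (25.7 ± 5.10), NR4A1 (13.2 ± 2.96) and IER3 (4.69 ± 0.790). IER2 and IER5 overlapped between libraries, and IER5 in its lowest library (30.6) lay below EGR1 in its highest (31.6). EGR2, EGR3, NR4A2 and NR4A3 stayed below 1 FPKM in all 18 libraries. In GENCODE 29, NR4A1, IER2, IER3 and EGR3 each overlap an annotated RNA on the opposite strand, and although the library kit keeps the strand, no source used here says whether the counting used it. Reads of such a pair may therefore not have been told apart.

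**Figure D1:**
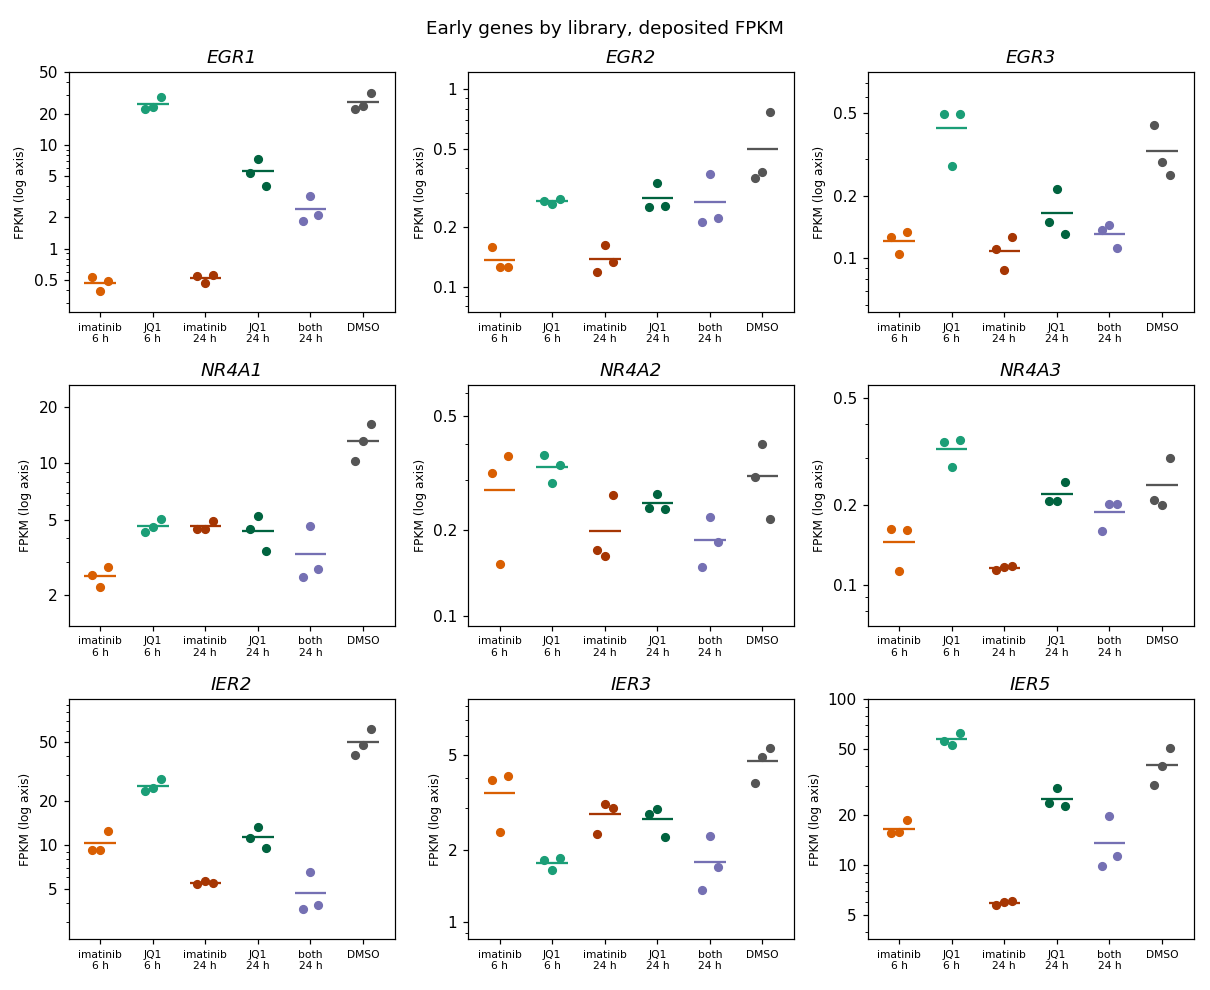
Deposited FPKM of the 9 genes on log axes, 1 panel per gene, with 3 libraries per group (points) and the group mean (line). EGR1 sits between 0.392 and 0.551 FPKM in both imatinib groups and between 22.2 and 31.6 FPKM with 6 h of JQ1 and in DMSO, and EGR2, EGR3, NR4A2 and NR4A3 stay below 1 FPKM throughout.

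EGR1, the best studied member of its family, fell below 1 FPKM with imatinib and stayed above 4 FPKM with JQ1 alone. With imatinib it had 0.529, 0.392 and 0.490 FPKM at 6 h, and at 24 h 0.546, 0.471 and 0.551 FPKM. With 6 h of JQ1 it had 22.4, 23.3 and 28.9 FPKM, with 24 h of JQ1 4.05, 5.37 and 7.39, and with both drugs 1.86, 3.19 and 2.12, against 22.2, 23.4 and 31.6 FPKM in DMSO. The imatinib libraries lay far below all others, the 6 h JQ1 libraries were interleaved with DMSO, and the 24 h JQ1 and combination libraries lay in between without overlapping each other. Mean EGR1 with imatinib was 54.7-fold below DMSO at 6 h and 49.3-fold below it at 24 h. The log2 changes were -4.17 ± 0.18 and -4.12 ± 0.18 (SE of the limma fit, adjusted p = 4.63e-14 and 9.48e-15), or -3.09 and -2.72 rescaled. At 6 h only 0.164% of tested genes had a lower change, and at 24 h 0.525%.

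Measured against most other genes, EGR1 was higher with 6 h of JQ1 than in DMSO. Its log2 change was -0.04 ± 0.18 on the deposited scale, not a call (adjusted p = 0.83), and 1.04 rescaled, a call (adjusted p = 4.94e-08). Rescaled, it averaged 22.2 ± 2.26 FPKM with JQ1 and 10.3 ± 0.690 in DMSO, with no overlap of libraries. Without DMSO replicate 3 or JQ1 replicate 1 or 2, the deposited change was 0.11, 0.03 and 0.0017. After 24 h of JQ1 EGR1 fell by 2.03 ± 0.18 (adjusted p = 4.56e-10), while the rescaled change of -0.46 did not reach the fold threshold. With both drugs it fell by 2.98 ± 0.18 (adjusted p = 3.7e-13), and the rescaled change was -0.89, again under the threshold.

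EGR2, a factor best known from myelinating Schwann cells, and EGR3 were close to the low end of the table. EGR2 had 0.126 to 0.159 FPKM after 6 h of imatinib, 0.264 to 0.278 after 6 h of JQ1, 0.119 to 0.164 after 24 h of imatinib, 0.254 to 0.337 after 24 h of JQ1, 0.212 to 0.372 with both, and 0.355 to 0.768 in DMSO. Its imatinib libraries lay below those of every other group. EGR3 had 0.105 to 0.134 FPKM after 6 h of imatinib, 0.280 to 0.494 after 6 h of JQ1 and 0.0883 to 0.126 after 24 h of imatinib. It had 0.131 to 0.217 after 24 h of JQ1 and 0.112 to 0.145 with both, against 0.253 to 0.437 FPKM in DMSO, which overlapped only the 6 h JQ1 libraries. The table holds no zeros and 40.8% of its gene values lie below 0.2, and EGR4, the fourth EGR gene, averaged 0.108 FPKM in DMSO. The sources used here do not say whether that level is an added constant, so ratios of these genes may be too small. With no filter and a pseudocount of 0.1, an alternative added after the data were seen, EGR2 fell with imatinib at 6 h and 24 h (log2 changes -1.28 ± 0.20 and -1.27 ± 0.20, limma, adjusted p = 1.88e-04 and 4.02e-05). EGR3 fell after 24 h (-1.02 ± 0.18, adjusted p = 9.11e-05). In that setting 14.3% of all 23621 genes were called lower at 6 h and 44.4% at 24 h. Rescaled, EGR2 averaged 0.0952 and 0.186 FPKM with imatinib at 6 h and 24 h, against 0.194 in DMSO. Rescaled EGR3 averaged 0.147 FPKM with imatinib at 24 h, against 0.138 in DMSO. Rescaling divided the 24 h imatinib libraries by 0.742 on average and the DMSO libraries by 2.51. A value near the low end of the table in each group is raised against DMSO by that division alone. Rescaled differences of these low genes therefore cannot be read as rises.

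NR4A1 (Nur77), an orphan nuclear receptor, was lower than DMSO in every drug group. At 6 h it had 2.57, 2.21 and 2.82 FPKM with imatinib, and with JQ1 4.35, 4.62 and 5.07. At 24 h it had 4.49, 4.49 and 4.94 FPKM with imatinib, 3.43, 4.46 and 5.26 with JQ1 and 2.49, 4.63 and 2.75 with both drugs, against 10.3, 13.2 and 16.2 FPKM in DMSO. The 6 h imatinib libraries were the lowest single-drug group, and the 24 h groups overlapped one another. The log2 change was -1.99 ± 0.18 after 6 h of imatinib, -1.31 ± 0.18 after 6 h of JQ1, -1.32 ± 0.18 after 24 h of imatinib, -1.40 ± 0.18 after 24 h of JQ1 and -1.74 ± 0.18 with both. All 5 were calls (adjusted p at most 7.5e-07). Rescaled, only the 6 h imatinib change remained one, at -1.19, and the others were -0.27, 0.21, 0.10 and 0.34 in the same order, so the direction turned at 24 h.

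NR4A2, known for its role in dopamine neurons, and NR4A3 stayed low in all groups. NR4A2 had 0.152 to 0.361 FPKM after 6 h of imatinib, 0.292 to 0.364 after 6 h of JQ1, 0.162 to 0.264 after 24 h of imatinib, 0.238 to 0.267 after 24 h of JQ1, 0.148 to 0.221 with both and 0.218 to 0.400 in DMSO, and most of these ranges overlapped. NR4A3 had 0.113 to 0.162 FPKM after 6 h of imatinib, 0.276 to 0.350 after 6 h of JQ1 and 0.114 to 0.118 after 24 h of imatinib. It had 0.206 to 0.243 after 24 h of JQ1, 0.159 to 0.201 with both, and in DMSO 0.236 ± 0.0552 (SD, n = 3). Without the filter, NR4A3 had a log2 change of -0.11 ± 0.03 with imatinib at 6 h and -0.15 ± 0.03 at 24 h (limma, adjusted p = 0.00679 and 4.46e-04), and 0.10 ± 0.03 after 6 h of JQ1 (adjusted p = 0.00916). All 3 lay far under the fold threshold, which a pseudocount of 1 makes hard to reach at such levels. On the rescaled values NR4A3 averaged 0.0999 FPKM in the 6 h imatinib group and 0.157 in the 24 h one, against 0.0942 in DMSO. The 24 h imatinib libraries lay above DMSO on that scale, and the 6 h imatinib libraries overlapped it. As for EGR3, division by 0.742 against 2.51 raises values this low, so the 24 h difference cannot be read as a rise. The 6 h JQ1 group averaged 0.288 FPKM rescaled.

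IER2, a nuclear regulator, fell with imatinib at both times and with JQ1 at 24 h. It had 9.23, 9.30 and 12.4 FPKM after 6 h of imatinib and 5.43, 5.68 and 5.50 after 24 h. With JQ1 it had 23.2, 24.4 and 28.1 FPKM at 6 h and 9.45, 11.2 and 13.1 at 24 h, and with both drugs 3.66, 6.54 and 3.88, against 40.9, 47.8 and 61.6 FPKM in DMSO. Every drug library lay below every DMSO library, and the combination overlapped 24 h imatinib. The log2 change with imatinib was -2.17 ± 0.19 at 6 h and -2.95 ± 0.19 at 24 h (adjusted p = 4.79e-09 and 3.47e-12), or -1.37 and -1.30 rescaled, both calls. With 6 h of JQ1 the log2 change of -0.95 ± 0.19 did not reach the fold threshold and was 0.17 rescaled, though it was a call without DMSO replicate 1 (-1.08) or JQ1 replicate 3 (-1.03). With 24 h of JQ1 and with both drugs the changes were -2.05 ± 0.19 and -3.18 ± 0.19, both calls, while the rescaled changes of -0.41 and -0.94 were not calls.

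IER5, a partner of the phosphatase PP2A that acts on heat shock factor 1, had the highest change of the 5 tested members with 6 h of JQ1. JQ1 for 6 h gave 56.3, 53.1 and 63.0 FPKM, all above the 30.6, 39.8 and 51.2 FPKM in DMSO. The log2 change was 0.52 ± 0.21 (adjusted p = 0.0215), under the fold threshold, and 1.62 rescaled, a call (adjusted p = 5.12e-12). On the deposited scale 98.5% of tested genes had a lower change than IER5. After 24 h of JQ1 it had 22.7, 23.8 and 29.2 FPKM, a log2 change of -0.64 ± 0.21 that is no call, against 1.003 rescaled, which is one. Imatinib left 15.6, 15.8 and 18.7 FPKM at 6 h and 5.76, 6.00 and 6.07 FPKM at 24 h. IER5 fell there, with log2 changes of -1.21 ± 0.21 and -2.55 ± 0.21 (adjusted p = 3.38e-05 and 1.13e-10), and the rescaled changes of -0.44 and -0.91 kept the sign but not the call. With both drugs it had 9.88, 19.9 and 11.4 FPKM and fell by 1.53 ± 0.21 (adjusted p = 2.64e-07), but the rescaled change was 0.80.

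IER3 had the lowest mean of the 5 tested members in DMSO (4.69 ± 0.790 FPKM, mean ± SD, n = 3). It had 3.93, 2.38 and 4.08 FPKM after 6 h of imatinib, and 1.82, 1.65 and 1.85 after 6 h of JQ1. At 24 h it had 2.34, 3.11 and 3.01 FPKM with imatinib, and with JQ1 2.82, 2.98 and 2.27. With both drugs it had 1.36, 2.30 and 1.69 FPKM, against 3.81, 4.90 and 5.35 in DMSO. Only 6 h of imatinib overlapped DMSO. IER3 fell after 6 h of JQ1 (-1.03 ± 0.16, adjusted p = 4.29e-06) and with both drugs (-1.03 ± 0.16, adjusted p = 1.88e-06). The JQ1 change lost its call when DMSO replicate 2, DMSO replicate 3 or JQ1 replicate 2 was left out (-0.99, -0.94 and -0.99), and the combination change when DMSO replicate 3 or combination replicate 1 was (-0.95 and -0.92). For imatinib at 6 h and 24 h and JQ1 at 24 h its changes were -0.36 ± 0.16, -0.57 ± 0.16 and -0.62 ± 0.16, none of them a call. Rescaled, the 5 changes in the order of the groups were 0.22, -0.15, 0.73, 0.66 and 0.74, none a call, so the 24 h changes turned to positive.

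Counted by comparison, 4 of the 5 tested members fell after 6 h of imatinib, beside 20% of all tested genes, and 3 after rescaling, beside 2.08%. For JQ1 at 6 h, 2 fell, beside 49.8% of genes, and after rescaling 2 rose, EGR1 and IER5, beside 2.47%. After 24 h of imatinib, 4 fell, beside 72.1%, and 2 after rescaling, beside 8.72%. After 24 h of JQ1, 3 fell, beside 75.3%, and after rescaling 1 rose, beside 5.25%. With both drugs all 5 fell, beside 86%. After rescaling their changes lay between -0.94 and 0.80, each under the fold threshold, with limma adjusted p of at most 3.22e-04. The pseudocount of 1 shrinks these changes. Rescaled means with both drugs and in DMSO were 5.08 and 10.3 FPKM for EGR1 and 9.93 and 19.9 for IER2. They were 3.81 and 1.87 FPKM for IER3, 28.7 and 16.0 for IER5 and 6.94 and 5.25 for NR4A1. At 24 h the deposited counts are thus near the share of all genes, and these 5 comparisons share the same DMSO libraries. At 6 h the median log2 change of the 5 members was -1.99 with imatinib, against -0.69 for all tested genes, and -0.95 with JQ1, against -1.0003.

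**Figure D2:**
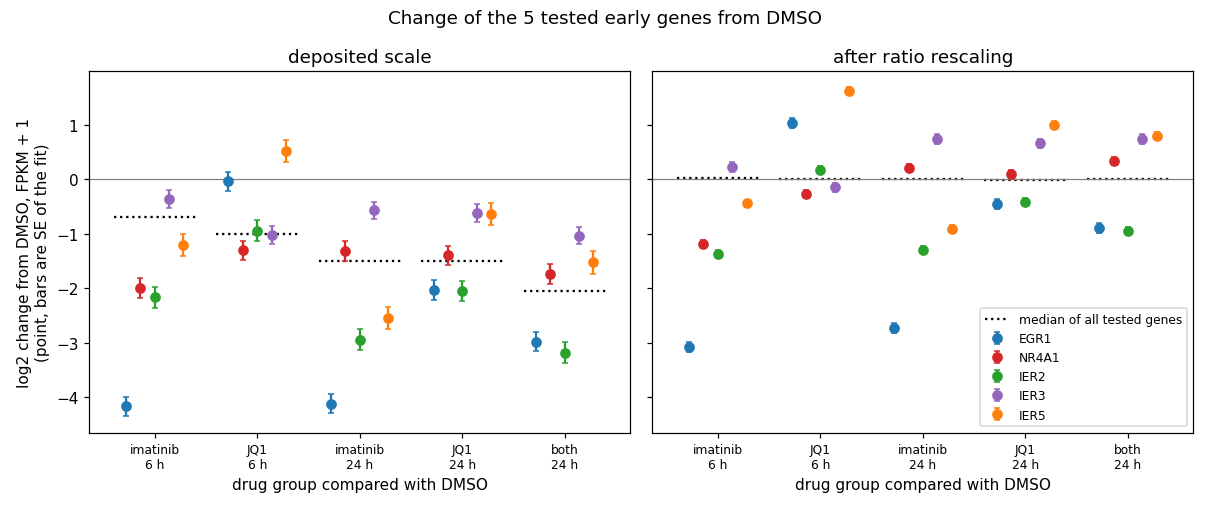
Log2 change from DMSO of EGR1, NR4A1, IER2, IER3 and IER5 (points, with the SE of the fit) in each drug group, on the deposited scale and after ratio rescaling. The dotted line is the median of all tested genes, and EGR1 lies at -4.17 and -4.12 in the imatinib groups and at -0.04 with 6 h of JQ1 on the deposited scale.

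The drugs were also compared with each other at the same dose and time. At 6 h, 3 members were higher with JQ1 than with imatinib, beside 1.95% of all tested genes. EGR1 was 52.9-fold higher (log2 difference 4.13 ± 0.18, adjusted p = 1.7e-13), IER5 3.44-fold (1.73 ± 0.21, adjusted p = 5.83e-07) and IER2 2.45-fold (1.22 ± 0.19, adjusted p = 1.75e-05), and the rescaled differences of 4.13, 2.06 and 1.54 were calls too. NR4A1 differed by 0.69 ± 0.18 and IER3 by -0.66 ± 0.16, both with no overlap of libraries but under the fold threshold. At 24 h, 2 members were higher with JQ1, beside 3.59%: EGR1 by 2.09 ± 0.18 and IER5 by 1.91 ± 0.21 (adjusted p = 5.45e-09 and 1.7e-07), or 2.26 and 1.92 rescaled. IER2 was higher by 0.90 ± 0.19, under the threshold, though a call without the unnumbered JQ1 24 h library (1.01), and NR4A1 and IER3 differed by -0.08 ± 0.18 and -0.05 ± 0.16, with overlapping libraries.

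Adding JQ1 to imatinib at 24 h left EGR1 and IER5 higher than imatinib alone, beside 0.423% of tested genes that rose. EGR1 had 1.86, 3.19 and 2.12 FPKM with both drugs, all above the 0.546, 0.471 and 0.551 FPKM with imatinib, a 4.57-fold difference (1.14 ± 0.18, adjusted p = 1.62e-05). IER5 was 2.31-fold higher (1.02 ± 0.21, adjusted p = 2.49e-04). Combination replicate 2 had the highest value of both genes and the highest rescaling factor of its group (0.612, against 0.353 in the lowest), and without it the changes were 0.97 and 0.74 and no calls. Rescaled, the combination libraries lay closer together and the changes were 1.83 and 1.71, both calls, beside 2.37% of genes. The log2 differences of NR4A1, IER2 and IER3 were -0.43 ± 0.18, -0.24 ± 0.19 and -0.46 ± 0.16, none a call, and 0.13, 0.36 and 0.01 rescaled.

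Set against JQ1 alone, IER2 was lower with both drugs (-1.13 ± 0.19, adjusted p = 1.1e-04), beside 7.35% of genes that fell, and the rescaled difference of -0.53 was no call. EGR1 and IER5 had log2 differences of -0.95 ± 0.18 and -0.89 ± 0.21, under the threshold, with no overlap of libraries. EGR1 was a call at a pseudocount of 0.1 (-1.19), in the replicate block (-1.08), without the unnumbered JQ1 24 h library (-1.13) and without combination replicate 2 (-1.11), and IER5 without that replicate (-1.17).

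The interaction asks whether JQ1 changed a gene differently in cells that also had imatinib. It was positive and called for EGR1 (3.17 ± 0.25, adjusted p = 2.04e-09), IER2 (1.81 ± 0.27, adjusted p = 6.03e-06) and IER5 (1.66 ± 0.29, adjusted p = 3.98e-05), beside 46.8% of all tested genes. For EGR1, JQ1 went with a change of 1.14 on top of imatinib and of -2.03 without it. After rescaling the interaction of EGR1 was 2.30 and still called, beside 4.88% of genes, and those of IER2 and IER5 were 0.78 and 0.71, not called. NR4A1 was at 0.97 ± 0.25 and IER3 at 0.15 ± 0.23, or 0.03 and -0.65 rescaled. With imatinib alone EGR1 was at 0.522 ± 0.0449 FPKM, near the low end of the table, where a further fall would be hard to see.

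**Figure D3:**
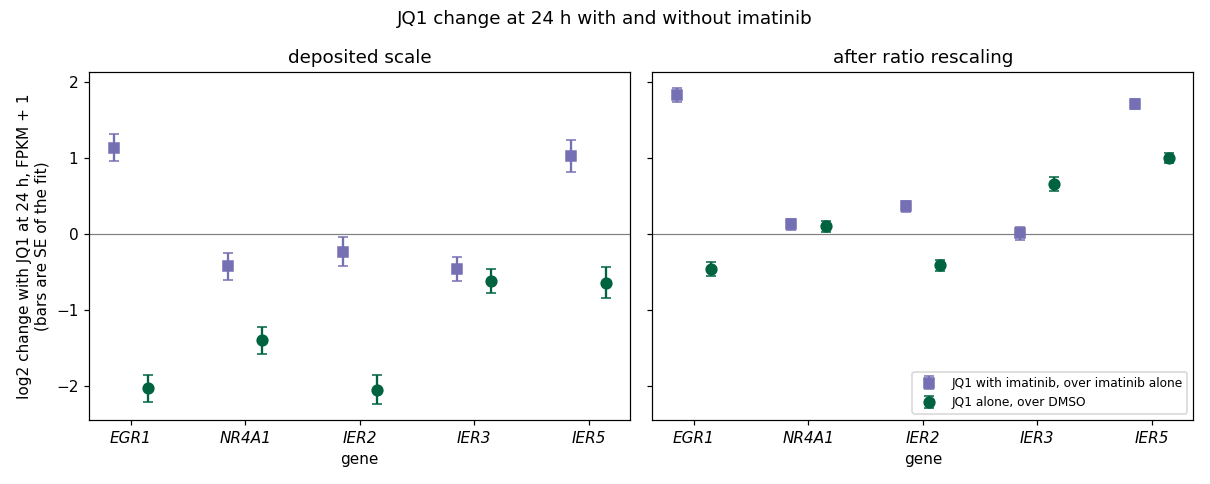
Log2 change with JQ1 at 24 h in cells with imatinib (squares, combination over imatinib) and without it (circles, JQ1 over DMSO), with the SE of the fit, on the deposited scale and after ratio rescaling. For EGR1 the squares lie at 1.14 and 1.83 and the circles at -2.03 and -0.46.

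Levels at 24 h were also set against those at 6 h of the same drug. With imatinib, IER5 fell further (-1.34 ± 0.21, adjusted p = 6.01e-06, -0.47 rescaled), beside 33.4% of genes, while EGR1 differed by 0.05 ± 0.18. NR4A1 differed by 0.68 ± 0.18, under the threshold, with all 24 h libraries above the 6 h ones, and after rescaling this was 1.40 and a call, beside 3.98% of genes. With JQ1, EGR1 (-1.99 ± 0.18, adjusted p = 1.5e-08), IER5 (-1.16 ± 0.21) and IER2 (-1.10 ± 0.19) were lower at 24 h than at 6 h, beside 14.2% of genes. Rescaled, EGR1 kept its call at -1.4996, and IER5 and IER2 were at -0.62 and -0.58. Without the JQ1 24 h library that carries no number, the IER2 change was -0.99 and no call.

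Of the 34 other immediate early genes listed, 31 were tested. For imatinib at 6 h, 16 fell and 1 rose, beside 20% and 0.384% of all genes, with a median log2 change of -1.02. The strongest falls were in PTGS2, the inducible cyclooxygenase (-3.58 ± 0.14), the matrix protein gene CTGF (-2.93 ± 0.17), the kinase gene PLK3 (-2.46 ± 0.13) and NFKBIZ, an IκB-type nuclear regulator (-1.92 ± 0.17). The 1 that rose, at 1.42 ± 0.19, was the kinase gene PLK2, named here after its value was seen. After rescaling 5 fell and 3 rose, beside 2.08% and 1.22%. EGR1 changed more than any of these 31. For JQ1 at 6 h, 8 fell and 3 rose, beside 49.8% and 0.642%, with a median of -0.35, and after rescaling 13 rose and 1 fell, with a median of 0.68, beside the 2.47% and 2.57% of all genes that rose and fell. CTGF rose by 2.16 ± 0.17 there, while the phosphatase gene DUSP2 (-2.15 ± 0.14), PTGS2 (-2.02 ± 0.14) and the mRNA decay gene ZFP36L1 (-1.51 ± 0.19) fell. The other 2 that rose were ARC (1.15 ± 0.12) and JUND (1.03 ± 0.22), named after their values were seen. With JQ1 on top of imatinib 3 fell, DUSP2, ZFP36L1 and GEM, with log2 changes between -1.04 and -1.02, beside 14.5% of all genes, and after rescaling 4 rose, beside 2.37%.

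**Figure D4:**
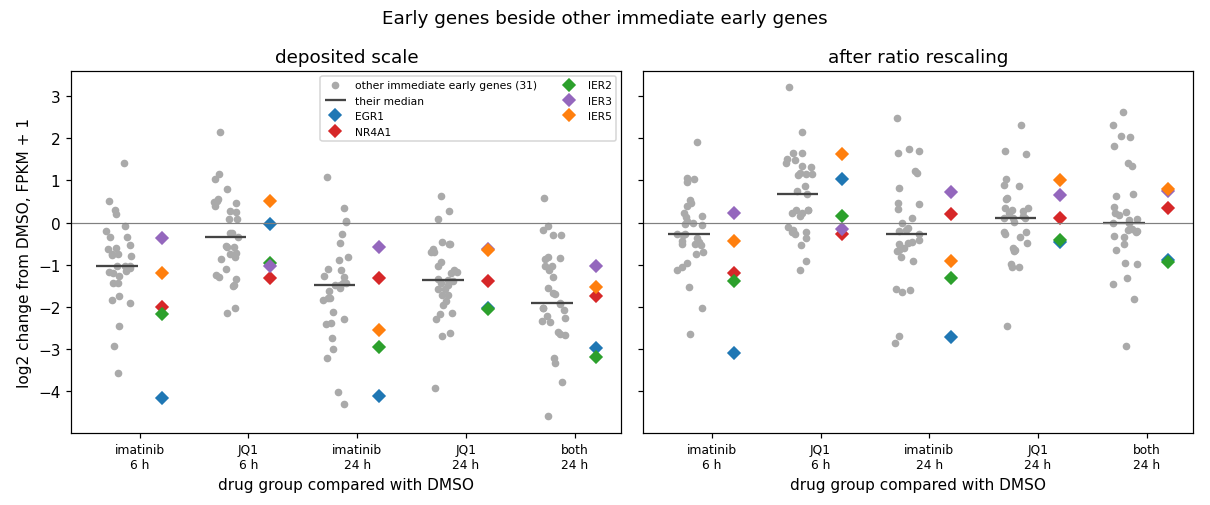
Log2 change from DMSO of 31 other immediate early genes (grey points, line at their median) and of the 5 tested members (diamonds), on the deposited scale and after ratio rescaling. With 6 h of JQ1 the grey median is -0.35 on the deposited scale and 0.68 rescaled, and EGR1 lies below all grey points with 6 h of imatinib.

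Transcripts of the signaling route above these genes were described in the same way. Of 24 transcripts from KIT to SRF, 8 fell and 1 rose with 6 h of imatinib, beside 20% and 0.384% of all genes, with a median of -0.78. After rescaling 1 fell and 1 rose, with a median of -0.02. The largest falls were in the KIT ligand KITLG (-2.24 ± 0.14), KIT (-1.75 ± 0.18) and the SRF partners ELK4 (-1.51 ± 0.17) and ELK3 (-1.42 ± 0.18). Rescaled, KITLG kept its call at -1.42, and KIT, ELK4 and ELK3 did not, at -0.97, -0.73 and -0.65. RPS6KA5, the kinase MSK1, rose by 1.41 ± 0.16 and is named because it was the only one to do so. For JQ1 at 6 h, 14 of the 24 fell, beside 49.8% of all genes, with a median of -1.12. KIT changed more there than with imatinib (-2.59 ± 0.18), and rescaled it was the 1 that fell (-1.44), beside 2.57%. All 12 ERK feedback and output genes fell after 6 h of imatinib, 9 of them after rescaling, beside 20% and 2.08% of all genes, and DUSP6, a phosphatase of ERK, led them at -5.89 ± 0.19. For JQ1 at 6 h, 8 of the 12 fell, beside 49.8%. Rescaled, their median was -0.07 and 0 were limma calls, with 6 lower and 4 higher at an unadjusted p under 0.05. After 24 h of JQ1 all 12 fell, 7 of them after rescaling, beside 75.3% and 6.47%. Of 8 tested cofactors of EGR and NR4A proteins, 2 fell with 6 h of imatinib, beside 20% of all genes: HDAC1 (-1.09 ± 0.20, -0.32 rescaled) and NAB2 (-1.04 ± 0.18, -0.30 rescaled), a corepressor that binds EGR1, neither a call when rescaled. At 6 h of JQ1, 5 fell, beside 49.8%, and 1 after rescaling, beside 2.57%, namely RXRA (-2.52 ± 0.18, -1.40 rescaled), a partner receptor of NR4A1. Of 9 decay factors of AU-rich transcripts, 2 fell with imatinib and 6 with JQ1 at 6 h, beside 20% and 49.8% of all genes. After rescaling 0 and 1 fell, beside 2.08% and 2.57%, with medians of -0.10 and -0.04. The 1 was HNRNPD (-1.11 rescaled).

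The genes closest in pattern to each tested member were ranked by Pearson r of log2(FPKM + 1) over the 18 libraries after rescaling. This is a description only, since libraries of the same group share their treatment. IER5 was closest to SLC9A3R1 (r = 0.993), a scaffold protein gene, and FAM222A (0.992). EGR1 was closest to the chromatin remodeler gene BAZ1A (0.988) and the lipid kinase gene PIP4K2A (0.986). IER2 was closest to PPP1R13B (0.986) and DUSP5 (0.984), an ERK phosphatase gene. IER3 was closest to ZNF75D (0.976) and ZC3H6 (0.968), and NR4A1 to SGMS1 (0.932) and SNPH (0.912). Within the set, EGR1 and IER2 had r = 0.951 rescaled and 0.853 on the deposited scale, EGR1 and IER5 0.841 and 0.893, and IER2 and IER5 0.705 and 0.845. NR4A1 with these 3 had r between 0.206 and 0.369 rescaled and between 0.464 and 0.780 deposited. IER3 with them had r between -0.616 and -0.270 rescaled and between 0.0811 and 0.499 deposited, so its sign depended on the scale. NR4A1 and IER3 had r = 0.485 rescaled and 0.611 deposited.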

How the data were processed

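RNA-seq (polyA RNA, single-end 75-base reads) of 18 GIST-T1 libraries was used. The authors deposited FPKM values for 23621 gene rows and 92 spike-in rows, made with STAR and Cufflinks on hg19 per the submitters' processing notes, with versions not given in the sources used here. Across 24 ERCC rows averaging at least 5, each library's median deviation lay between -0.019 and 0.0384 on the log2 scale, so the deposited values were already on the spike-in scale. The sources used here give neither the formula nor the read depths, so no counting intervals are given.

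One of the 3 JQ1 24 h columns has a number that no sample title carries. It was used as a library of that group without a replicate number. No columns were identical, and replicates correlated at r = 0.9795 to 0.9887 within groups.

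Changes were fitted with limma 3.58.1 (R 4.3.3) on log2(FPKM + 1), with 1 mean per group over all 18 libraries, a trended variance and 12 residual degrees of freedom. The test took the 12771 genes that reached 1 FPKM in 3 or more libraries, and p-values were adjusted by Benjamini and Hochberg over all of them in each comparison. A call needed an adjusted p under 0.05 and a log2 change of at least 1 in size. The fit was tested on simulated data. For ratio rescaling, gene ratios to a geometric mean library were formed, and each library was divided by their median. Other alternatives were a pseudocount of 0.1, no filter, only the compared groups, a replicate block and leaving out each library. The 9 members are always named. From each gene list up to 4 genes with the largest change are named, and for each tested member the 2 genes with the highest r. The members and lists were chosen with earlier results of these data known. Promoter windows came from RefSeq (GRCh38.p14). One marker of another cell type is not reported here.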

Additional observations from a re-analysis of the deposited data

Results flagged for a closer look

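Differences between times or between backgrounds that passed the test are given here as values. With imatinib, IER5 was lower at 24 h than at 6 h by a log2 change of -1.34 ± 0.21 (limma, adjusted p = 6.01e-06), lower in all 3 libraries at 24 h than in all 3 at 6 h, and by -0.47 rescaled, no call, beside 33.4% of all genes called lower on the deposited scale. With JQ1, 24 h libraries lay below 6 h libraries for EGR1 (-1.99 ± 0.18, adjusted p = 1.5e-08), IER5 (-1.16 ± 0.21, adjusted p = 7.76e-05) and IER2 (-1.10 ± 0.19, adjusted p = 5.47e-05), in 3 of 3 libraries each, beside 14.2% of all genes called lower. Rescaled, EGR1 kept its call (-1.4996) and IER5 (-0.62) and IER2 (-0.58) did not.

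The effect of JQ1 at 24 h differed between cells with and without imatinib for EGR1 (interaction 3.17 ± 0.25, adjusted p = 2.04e-09), IER2 (1.81 ± 0.27, adjusted p = 6.03e-06) and IER5 (1.66 ± 0.29, adjusted p = 3.98e-05). In the same test 46.8% of all tested genes were called higher. After rescaling EGR1 kept its call at 2.30, beside 4.88%, and IER2 (0.78) and IER5 (0.71) did not. The median interaction of all tested genes was 0.95 on the deposited scale and 0.01 rescaled.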

How the results depend on the processing

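Ratio rescaling changed the most, since it shifts the median of all tested genes by between 0.70 and 2.05 on the log2 scale in the comparisons with DMSO. Under it the members called became 3 lower for 6 h of imatinib, beside 2.08% of all tested genes. They became 2 higher and 0 lower for 6 h of JQ1, beside 2.47% and 2.57%. For 24 h of imatinib they became 2 lower, beside 8.72%. For 24 h of JQ1 they became 1 higher and 0 lower, beside 5.25% and 6.47%. They became 0 lower for the combination, beside 10.1%, and 0 lower for the combination over JQ1, beside 0.814%. Imatinib at 24 h over 6 h had 1 higher and 0 lower, beside 3.98% and 4.38%. JQ1 at 24 h over 6 h had 1 lower, beside 3.45%, and the interaction 1 higher, beside 4.88%. Among the tested members, signs turned for IER3 at 6 h of imatinib (0.22). At 6 h of JQ1 they turned for EGR1 (1.04) and IER2 (0.17), and at 24 h of imatinib for NR4A1 (0.21) and IER3 (0.73). They turned for NR4A1, IER3 and IER5 at 24 h of JQ1 (0.10, 0.66 and 1.003) and with both drugs (0.34, 0.74 and 0.80). They turned for NR4A1, IER2 and IER3 in the combination over imatinib (0.13, 0.36 and 0.0087) and for NR4A1 and IER3 in the combination over JQ1 (0.24 and 0.0867). They turned for IER2 and IER3 in imatinib at 24 h over 6 h (0.0703 and 0.51), for NR4A1 in JQ1 at 24 h over 6 h (0.37) and for IER3 in the interaction (-0.65). The rescaling by its construction removes a change shared by most genes.

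Members called lower in the combination over JQ1 were 2 at a pseudocount of 0.1, with the filter or, as added after seeing the data, without it. Without the filter 7.95% of all 23621 genes were called lower there. In that added setting 5 members were called higher in the interaction, beside 27.9% of all 23621 genes: EGR1, NR4A1, IER2, IER5 and EGR2 (1.20), which is below the filter. It also called EGR3, likewise below the filter, higher with JQ1 than with imatinib at 6 h (1.21, adjusted p = 1.12e-04), beside 1.7% of genes. No filter and a fit of only the compared groups kept every sign and call of the 5 members. Leaving out 1 library gave 1 to 3 members lower at 6 h of JQ1, 0 to 2 higher in the combination over imatinib and 1 to 3 lower in the combination over JQ1. In the full fit 49.8%, 0.423% and 7.35% of all tested genes were called in those directions. Leaving out 1 library also turned signs of values near 0: EGR1 at 6 h of JQ1 (-0.15 to 0.11), NR4A1 (-0.20 to 0.0535) and IER3 (-0.14 to 0.0365) in JQ1 over imatinib at 24 h, and NR4A1 in JQ1 at 24 h over 6 h (-0.21 to 0.0438). The cause was not tested. NR4A1 in the interaction ranged from 0.76 to 1.12 and was a call in 5 of these fits.

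Libraries with the same number did not deviate together (r from -0.2376 to 0.1927 over 40 pairs, 4 of them above 0.1). For different numbers r ran from -0.2021 to 0.2167. No shared deviation by number was thus seen, which cannot show whether the libraries were run as matched sets. With the replicate block, 2 members were called lower in the combination over JQ1, EGR1 (-1.08) joining IER2, and no other call changed. Read depth is unknown, and 4 of the 9 members were too low to test.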
